A study of Mus musculus with 12 samples.

Results

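The interaction of lipopolysaccharide (LPS) and JSH-23 was examined in mouse bone marrow-derived dendritic cells (BMDCs), that is, whether each gene answered LPS differently once the cells had been given JSH-23. Every library of the series served, 12 of 12, in 4 groups of 3 that the sample titles define: WT (unstimulated), WTL (LPS), WT + JSH23 (JSH-23 without LPS) and WTL + JSH23 (JSH-23, then LPS). All cells came from C57BL/6 mice of genotype CreER, which carry the tamoxifen-inducible Cre recombinase with an intact Ctcf gene, and the controls share this background with the treated groups. Bone marrow was cultured with the cytokine GM-CSF for 6 days, with fresh medium every 2 days. LPS was given at 100 ng/ml for 3 h and JSH-23 at 100 µM for 3 h. The labels repeat the same treatment text for every library. A solvent control for JSH-23, the harvest time of the WT + JSH23 cells after exposure and the age of the mice are not given in them. The series text calls the replicates biological, and nothing says which came from separate mice or cultures, so p-values measure the spread between these libraries. The libraries without JSH-23 are numbered 4 to 6 and those with JSH-23 1 to 3. Any difference in level between these sets of cultures cannot be told apart from the effect of JSH-23 on a level. The interaction compares LPS changes that were each taken within a set. A difference between the sets in how they answered LPS cannot be told apart from the interaction either.

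LPS is recognised by the receptor TLR4 together with CD14 and MD-2. Signals through the adaptor MyD88 activate NF-κB and the MAP kinases and switch on cytokine, chemokine and feedback genes, while signals through the adaptor TRIF activate IRF3 and interferon β, which in turn acts through its receptor on interferon-stimulated genes. RelA, the NF-κB subunit that carries much of this response, is held in the cytoplasm by inhibitor proteins until they are degraded, and JSH-23 is a small molecule described as blocking its entry into the nucleus.

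For each gene, 5 contrasts were taken from a single fit. The LPS change without JSH-23 is WTL minus WT and the LPS change with JSH-23 is WTL + JSH23 minus WT + JSH23, both in log2. Subtracting the former from the latter gives the interaction. The baseline shift is WT + JSH23 minus WT and the LPS-level shift is WTL + JSH23 minus WTL. By construction the interaction also equals the LPS-level shift minus the baseline shift, so that a weaker LPS change can come from a higher starting level, a lower level after LPS, or both. A gene was called in a contrast at an adjusted p under 0.05. CPM denotes counts scaled to a common library size (TMM-scaled CPM).

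The libraries held between 24664724 and 34837847 expected counts. WTL + JSH23 replicate 3 differed from the other replicates of its group by more than other replicate pairs differed from each other, with a chi-square per degree of freedom of 7.87 and 8.72 against 2.31 to 4.38. The first principal component, 55.6% of the variance, followed LPS and the second, 22.6%, followed JSH-23. Among dendritic cell markers, Itgax (CD11c) stood at 648.5 CPM in WT and none of the 8 tested markers had a called interaction. Macrophage markers summed to 2779 to 2955 CPM in WT, 2126 to 2247 in WTL, 2036 to 2079 in WT + JSH23 and 1713 to 1728 in WTL + JSH23, with Vsig4 at 0. Neutrophil markers summed to 269.3 to 283.8, 247.2 to 255.5, 219.1 to 233.4 and 195.6 to 208.5 CPM in the same order, and 3 of 8 tested had a negative interaction. The summed lymphocyte markers reached at most 8.49 CPM, mast cell, basophil and eosinophil markers 3.93 CPM, and erythroid markers 0.133 CPM with Hba-a1 at 0. The part of the macrophage and neutrophil markers in the results below was not tested, and in bulk RNA fewer cells of a type and less RNA per cell cannot be told apart.

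Of 14357 genes tested, 2582 had a called interaction, 18.0% of the genes. It was positive in 1370 genes (9.54% of those tested) and negative in 1212 (8.44%). LPS raised 4451 genes (31.0%) and lowered 4986 (34.7%) without JSH-23, against 3935 raised (27.4%) and 3893 lowered (27.1%) with it. The baseline was higher with JSH-23 for 2701 genes (18.8%) and lower for 3180 (22.1%), and the LPS level was higher for 3516 (24.5%) and lower for 3478 (24.2%). The share of called interactions that were positive, 53.1%, depended on how libraries were scaled: it was 41% by DESeq2, 79.3% with library totals alone and 79.5% on TPM. Scaling by library totals alone also moved the median LPS change over all genes from -0.05 to -0.38 without JSH-23 and from -0.02 to -0.26 with it, and the median interaction from 0.03 to 0.12. Directions below are relative to the TMM scaling, and values under other scalings are given with the lists. The counts of called members below are to be read beside the 9.54% positive and 8.44% negative interactions over all genes. Counts of members with a called LPS change, baseline shift or LPS-level shift are to be read beside the shares given above for that contrast.

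The dominant form of the interaction was a smaller LPS response, in both directions. Among the called genes, 1087 (42.1%) were induced by LPS and less so with JSH-23, and 1125 (43.6%) were repressed by LPS and less so with JSH-23. A larger response was less frequent, with 179 induced genes (6.93%) and 94 repressed genes (3.64%). In 95 of the 179 and 64 of the 94 the LPS change was called only with JSH-23. The median LPS change of the 179 went from 0.11 without to 0.59 with JSH-23, and that of the 94 from -0.04 to -0.45. The response changed sign in 84 genes, 26 (1.01%) that went up without JSH-23 and down with it and 58 (2.25%) that did the opposite, and 13 genes had no called LPS change in either arm. Median LPS changes fell from 0.74 to 0.39 in log2 among the induced genes with a smaller response and went from -0.80 to -0.36 among the repressed ones. The sizes were modest. The median absolute interaction was 0.31 in the first of these classes and 0.42 in the second, and 49 and 101 of their genes exceeded a 2-fold difference. For 829 of the 1087 induced genes the LPS rise was still called with JSH-23, and for 258 it was called only without it; among the 1125 repressed genes these counts were 788 and 337. The classes of smaller response held 491 induced and 2281 repressed genes when library totals alone were used. The LPS change without JSH-23 and the interaction share the WT and WTL libraries, so noise in those libraries by itself moves a gene toward a smaller response.

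**Figure D1:**
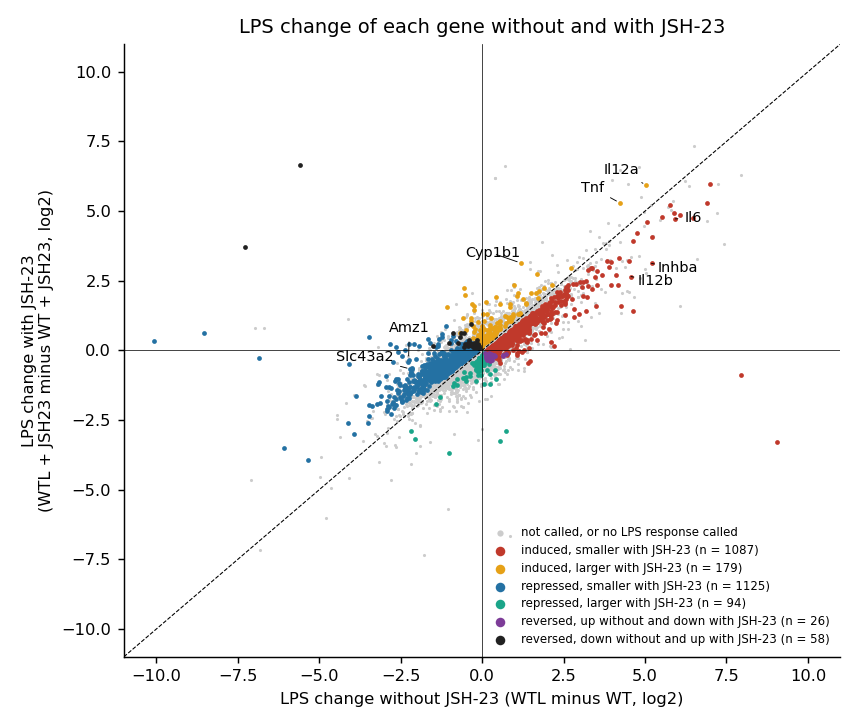
LPS change of each of 14357 genes without JSH-23 (x axis, log2) and with JSH-23 (y axis, log2), with the 6 response classes in colour, other genes in grey and equality as a dashed line. Most coloured points lie between the dashed line and the horizontal axis, which is where the 1087 induced and 1125 repressed genes with a smaller response sit, while Tnf, Il12a and Cyp1b1 lie above the line.

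The induced genes with a smaller response were reached from both sides, but more often from the LPS level. The LPS level alone was shifted in 376 of the 1087 genes, in each case downward, and the baseline alone in 155, in each case upward. Both directions are all but fixed by the negative interaction that defines the class, so only the counts are informative. In 104 genes the baseline was higher and the LPS level lower. In 348 genes both levels were lower with JSH-23 and the LPS level more so, and in 86 both were higher and the baseline more so. In all, the LPS level was lower in 828 of these genes and higher in 86, while the baseline was higher in 345 and lower in 348. The repressed genes with a smaller response, a class defined by a positive interaction, have the opposite directions for the same reason. The LPS level alone was higher in 455 of 1125 and the baseline alone was lower in 237. Both were higher in 234, both lower in 85, and 95 had a lower baseline with a higher LPS level. Over all 2582 called genes, 926 (35.9%) had an LPS-level shift only, 447 (17.3%) a baseline shift only, 223 (8.64%) both in opposite directions, 945 (36.6%) both in the same direction and 41 (1.59%) neither. A shift that missed the threshold is not shown to be absent, and when shifts also had to exceed 1.5-fold, 1615 of the called genes had neither.

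**Figure D2:**
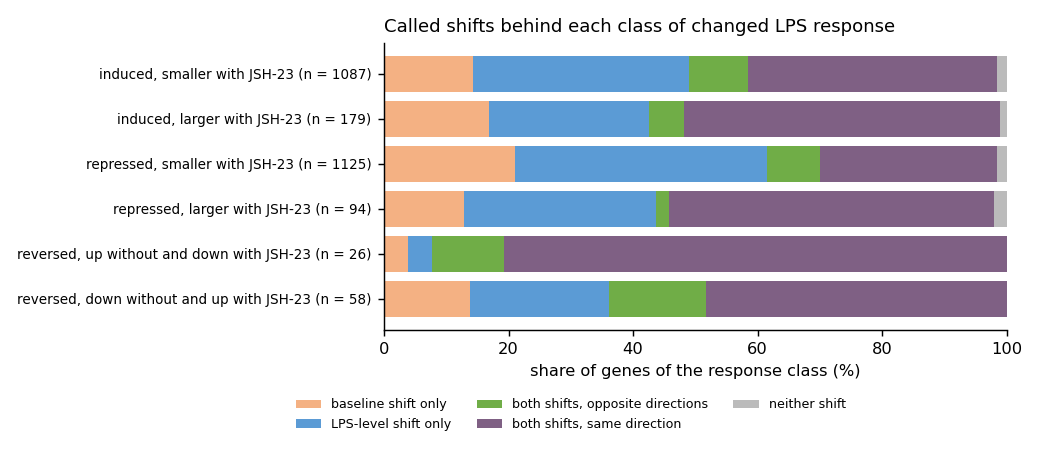
Share of genes (x axis, percent) of each response class (y axis, with the number of genes) whose baseline, LPS level, both or neither was shifted by JSH-23 at an adjusted p under 0.05. The LPS level alone accounts for 34.6% of induced and 40.4% of repressed genes with a smaller response, and 80.8% of the genes that turned from up to down had both levels shifted in the same direction.

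Cytokines had the most negative median interaction of the pathway lists. Their share of negative calls, 54.5%, was not the largest, which was 70.6% in interferon-stimulated genes. Of 22 tested, 12 had a negative and 2 a positive interaction, beside 8.44% and 9.54% of all genes, and the median LPS change went from 4.06 without JSH-23 to 2.89 with it. Their median baseline shift was 0.00, with 6 genes higher and 8 lower, whereas the median LPS-level shift was -0.67, with 4 higher and 17 lower. The median interaction was -0.57, beside 0.03 over all genes tested, and it stayed negative under every scaling. Without WTL + JSH23 replicate 3 the counts were 13 and 2.

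Il12b, which encodes the p40 chain shared by interleukin 12 and interleukin 23, moved at both levels in opposite directions. It lies on chromosome 11 at 44400063 to 44414033 (GRCm38). It stood at 119.6, 108.6 and 112.5 CPM in WT and rose to 2945, 2730 and 2412 in WTL. With JSH-23 it stood at 246.0, 273.1 and 306.1 CPM before LPS and 1581, 1720 and 1888 after it. Every JSH-23 library was above the WT libraries before LPS and below the WTL libraries after LPS, with no overlap. The baseline shift was 1.28, the LPS-level shift -0.64 and the interaction -1.92 ± 0.11 in log2 (SE, adjusted p = 1.49e-10). Il6, the pleiotropic cytokine interleukin 6, followed the same pattern at 32.9, 28.7 and 29.0 CPM in WT, 1944, 1857 and 1734 in WTL, 42.7, 42.8 and 54.6 in WT + JSH23 and 1153, 1308 and 1229 in WTL + JSH23. Here too the groups did not overlap, and the interaction was -1.21 ± 0.11 (adjusted p = 1.63e-07), made of a baseline shift of 0.63 and an LPS-level shift of -0.59.

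Inhba, the βA chain of activin, had the most negative interaction of the cytokines but not a lower level after LPS. It stood at 44.2, 42.5 and 40.5 CPM in WT, 195.8, 223.2 and 323.8 in WT + JSH23, 1690, 1551 and 1431 in WTL and 2014, 2059 and 2405 in WTL + JSH23. Both levels were higher with JSH-23, without overlap, and the baseline far more so. The baseline shift was 2.55, the LPS-level shift 0.47 and the interaction -2.07 ± 0.17 (adjusted p = 5.9e-08). In CPM the LPS increment of Inhba was larger with JSH-23, 1912 against 1515, although its ratio was smaller. Il1f9 (interleukin 36γ) and Osm (oncostatin M) also had both levels higher and a smaller LPS ratio, with baseline shifts of 2.26 and 1.33 and LPS-level shifts of 1.87 and 0.69.

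The interleukin 1 genes were reached from the LPS level. For Il1b the baseline shift of -0.16 did not pass the test and the LPS-level shift was -1.28, with an interaction of -1.12 (adjusted p = 5.8e-08). For Il1a the shifts were -0.29 and -1.50, both called. Lif and Ebi3 had an LPS-level shift only, of -1.01 and -0.59. Il1rn, the interleukin 1 receptor antagonist, had a higher baseline (0.35) and a lower LPS level (-0.22).

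Tnf and Il12a went the other way, with a larger LPS ratio at lower levels throughout. Tnf, the cytokine tumour necrosis factor, stood at 101.7, 116.5 and 110.3 CPM in WT, 28.7, 31.8 and 33.3 in WT + JSH23, 1988, 2009 and 2132 in WTL and 1190, 1246 and 1269 in WTL + JSH23. Il12a, the p35 chain of interleukin 12, stood at 2.45, 2.96 and 2.73 CPM in WT, 0.615, 0.579 and 0.51 in WT + JSH23, 87.1, 89.7 and 89.4 in WTL and 32.1, 37.7 and 35.4 in WTL + JSH23. Both genes were lower with JSH-23 before and after LPS, with no overlap, and the baseline was lowered more. For Tnf the baseline shift was -1.81, the LPS-level shift -0.73 and the interaction 1.08 ± 0.07 (adjusted p = 8.09e-09). For Il12a the shifts were -2.24 and -1.34 and the interaction 0.90 ± 0.20 (adjusted p = 0.00318), which was 0.37 with an adjusted p of 0.0503 by limma on TPM. In CPM the increments of both were smaller with JSH-23, 1204 against 1934 for Tnf and 34.5 against 86.0 for Il12a. Ifnb1, which encodes interferon β, was near the floor, with means of 0.399 CPM in WT, 1.81 in WTL, 0.0443 in WT + JSH23 and 0.215 in WTL + JSH23. Its baseline shift was -3.05, its LPS-level shift -3.07 and its interaction -0.02, which did not pass the test. At such low counts, whether both ratios were alike cannot be told.

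Ratio and increment mostly pointed the same way, in large part by arithmetic. Of the 1087 induced genes with a smaller ratio, 1052 also had a smaller CPM increment, in 905 of them without overlap between library pairs, and 35 had a larger one, 16 without overlap. Of the 179 with a larger ratio, 155 had a larger increment, 116 without overlap, and 24, Tnf and Il12a among them, a smaller one, 15 without overlap. For an induced gene, a smaller ratio at a lower LPS level means a smaller increment, and a larger ratio at a higher level a larger one. The LPS level was called lower in 828 of the 1087 genes and higher in 93 of the 179. For those genes the agreement was all but fixed in advance. All 1087 and 179 genes come from the 18.0% with a called interaction, which was tested on the same libraries. The same counts were not taken over all genes tested, so they have no reference share. Among the genes with a larger ratio but a smaller increment was Cxcl10, with an LPS increment of 226.0 CPM without and 59.6 with JSH-23. Cxcl5, with a smaller ratio, had an increment of 56.6 CPM without and 219.6 with JSH-23. These last genes were chosen after their values were seen.

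The upstream sequences of the cytokine genes are given because the members differ in what JSH-23 did to their starting level. They are the 250 bases before the transcription start in the RefSeq annotation of GRCm38.p6, written 5′ to 3′ on the gene's strand, in lower case, with any match to GGGANNTTC (NF-κB-like), GAAANNGAA (IRF-like), GCGTG (aryl hydrocarbon receptor-like core) or TGACNNNGC (Nrf2-like), searched on both strands, in capitals. Il6 lies at chr5:30012864-30013113 on the plus strand, Il12b at chr11:44399813-44400062 on the plus strand and Tnf at chr17:35202008-35202257 on the minus strand.
Il6: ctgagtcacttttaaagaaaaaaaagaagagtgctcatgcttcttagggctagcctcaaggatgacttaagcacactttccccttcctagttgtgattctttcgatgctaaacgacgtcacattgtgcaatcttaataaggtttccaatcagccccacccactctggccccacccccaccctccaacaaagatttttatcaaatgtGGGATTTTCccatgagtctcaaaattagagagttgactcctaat
Il12b: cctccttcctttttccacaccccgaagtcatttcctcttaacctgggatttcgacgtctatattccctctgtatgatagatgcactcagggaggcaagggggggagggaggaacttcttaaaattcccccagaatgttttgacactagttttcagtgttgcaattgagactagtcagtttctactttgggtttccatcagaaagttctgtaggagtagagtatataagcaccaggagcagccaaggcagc
Tnf: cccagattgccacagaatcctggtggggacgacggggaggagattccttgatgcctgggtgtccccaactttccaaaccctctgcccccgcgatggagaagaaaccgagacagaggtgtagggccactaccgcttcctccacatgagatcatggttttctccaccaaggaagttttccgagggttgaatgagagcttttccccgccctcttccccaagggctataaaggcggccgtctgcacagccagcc
Il6 held an NF-κB-like match that begins 44 bases before the start, and no match of another of these motifs overlapped it. Il12b and Tnf held none of the 4 motifs in these 250 bases, while Tnf held an NF-κB-like match 5 bases past its start. An NF-κB-like match was present in 3.87% of the 27025 promoters of the table, which reach from 250 bases before to 50 after the start. A match is a description of letters and not evidence of binding, and the absence of these letters says nothing about the factor.

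**Figure D3:**
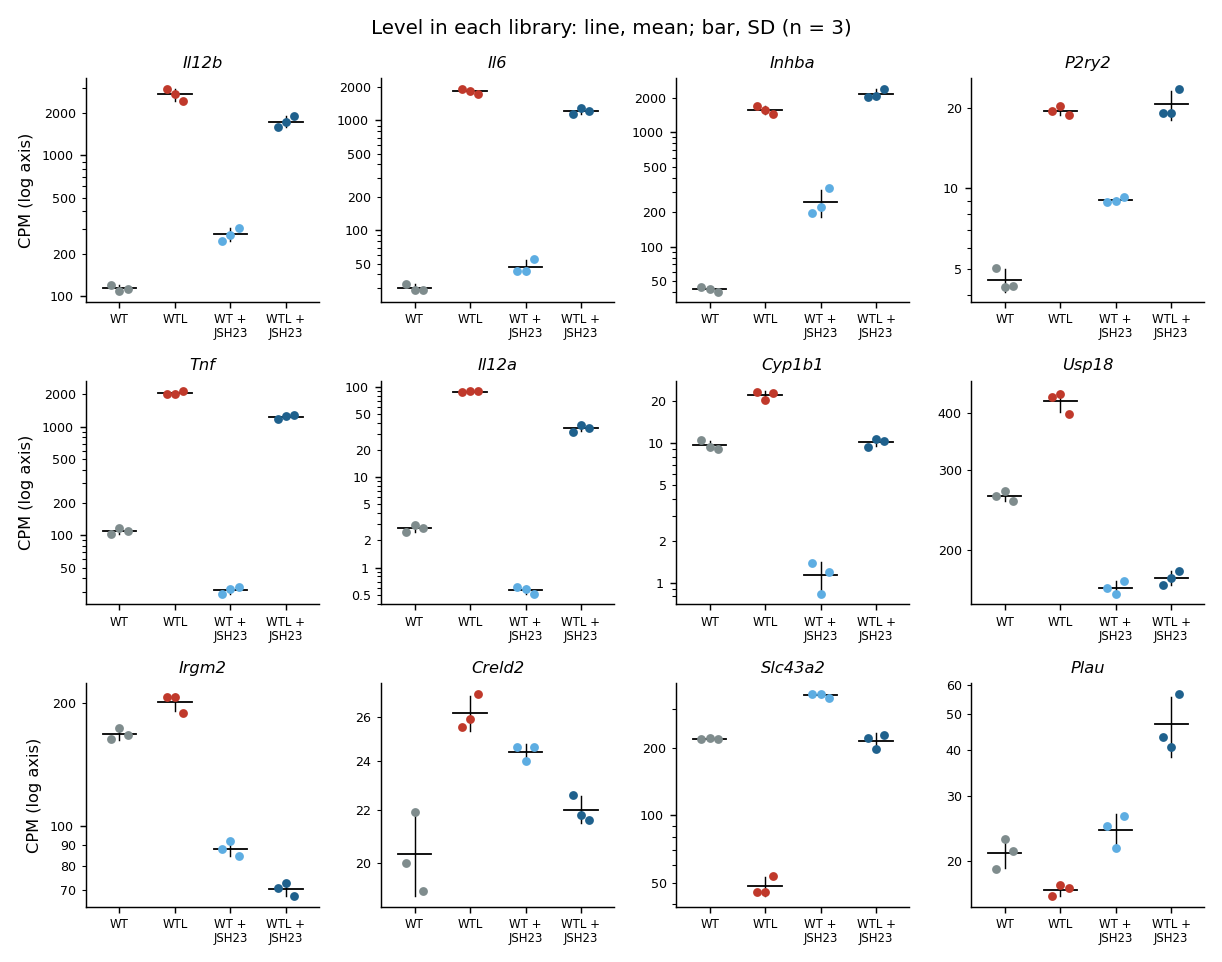
CPM (log axis) in each of the 12 libraries for 12 genes, by group, with the mean as a horizontal line and the SD as a bar (n = 3). Il12b and Il6 sit higher before LPS and lower after it with JSH-23, Inhba and P2ry2 differ mainly before LPS, Tnf, Il12a and Cyp1b1 are lower in both but further down before LPS, and Irgm2 and Creld2 rise with LPS only in the absence of JSH-23.

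Most chemokines had a smaller LPS ratio with JSH-23. Of 19 tested, 11 had a negative and 2 a positive interaction, beside 8.44% and 9.54% of all genes, and the median was -0.45. On TPM 6 were negative. The baseline was lower for 12 and higher for 5, and the LPS level was lower for 14 and higher for 4. The neutrophil-attracting CXC chemokines had a raised baseline: Cxcl1, Cxcl2, Cxcl3 and Cxcl5 had baseline shifts of 1.32, 0.91, 1.65 and 2.73, with LPS-level shifts of 0.30, -0.04, 0.36 and 2.04, of which that of Cxcl2 did not pass the test. Cxcl3 stood at 354.9, 378.6 and 354.0 CPM in WT, 1172, 1034 and 1212 in WT + JSH23, 3427, 3377 and 3285 in WTL and 4186, 4329 and 4435 in WTL + JSH23. Both levels were higher without overlap and the interaction was -1.29 ± 0.07 (adjusted p = 7.16e-11), with reads divided between genes by the counting in 11 libraries. Ccl3 and Ccl4, which draw monocytes and T cells, were lower at both levels and more so after LPS, with baseline shifts of -0.71 and -1.57 and LPS-level shifts of -1.44 and -2.02. Ccl2, the monocyte attractant MCP-1, and Cxcl10, a ligand of CXCR3, had a larger LPS ratio at lower levels, with interactions of 0.53 (adjusted p = 0.013) and 0.36 (adjusted p = 0.0077). That of Ccl2, which overlaps another protein-coding gene, was 0.43 without WT + JSH23 replicate 1 (adjusted p = 0.0613). Cxcl9, Cxcl11, Ccl7 and Ccl12 had lower levels in both states, with LPS-level shifts between -1.15 and -3.17, and interactions that did not pass the test. Of these, Cxcl11, Ccl7 and Ccl12 were near the floor, with group means of at most 2.76, 2.08 and 2.54 CPM. Whether their LPS ratios were alike in both arms cannot be told.

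The receptor side of the pathway was mixed. Of 20 TLR4 signalling genes, 4 had a negative and 3 a positive interaction, against 2 and 8 with library totals alone. The median was -0.00, which was 0.09 with library totals alone, 0.18 on TPM and 0.01 without WTL + JSH23 replicate 3. Cd14, the co-receptor that hands LPS to TLR4, stood at 236.0, 244.4 and 236.9 CPM in WT, 360.6, 357.6 and 399.2 in WT + JSH23, 1294, 1298 and 1210 in WTL and 1089, 1127 and 1239 in WTL + JSH23. It was higher before LPS without overlap, whereas after LPS replicate 3 with JSH-23 fell within the range of WTL, and the interaction was -0.78 ± 0.07 (adjusted p = 2.05e-07). Tlr4 was repressed by LPS from 40.2, 43.1 and 37.1 CPM to 16.2, 15.6 and 14.3, and with JSH-23 from 37.8, 35.3 and 34.0 to 28.0, 26.9 and 26.5. The level after LPS was higher with JSH-23 in every library, with an interaction of 0.99 ± 0.09 (adjusted p = 2.52e-07). Ticam1, which encodes TRIF, rose with LPS without JSH-23 by 0.32, and its LPS change with JSH-23 was -0.07, for an interaction of -0.39 (adjusted p = 0.000544). Tab1, a partner of the kinase TAK1, had LPS changes of -1.54 without and -0.98 with JSH-23.

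The genes of NF-κB itself had small interactions, between -0.39 and 0.17. Of 20 subunit, inhibitor and kinase genes, 7 had a negative and none a positive interaction, beside 8.44% and 9.54% of all genes. Nfkb1, Nfkb2, Nfkbib, Bcl3, Tnip1 and Ikbkb were among the negative ones. In each arm 16 genes of the list were induced by LPS. The median LPS change went from 1.24 to 1.01 in the presence of JSH-23. The median interaction of -0.11 was 0.01 on TPM, where 2 genes were negative and 1 positive. Nfkbia (IκBα), Tnfaip3 (A20) and Nfkbiz (IκBζ), feedback genes of the pathway, had LPS changes of 2.15, 2.68 and 4.98 without JSH-23 and 2.03, 2.61 and 4.97 with it, and their interactions did not pass the test. Their levels were lower with JSH-23 in both states, with LPS-level shifts of -0.44, -0.40 and -0.92 and baseline shifts of -0.32, -0.33 and -0.91. Zc3h12a, which encodes the RNase Regnase-1, had the most negative interaction of the list at -0.39 ± 0.07 (adjusted p = 0.000344). It stood at 33.9, 31.3 and 32.5 CPM in WT, 29.0, 32.1 and 31.6 in WT + JSH23, 193.7, 188.6 and 184.3 in WTL and 130.5, 139.1 and 140.5 in WTL + JSH23. The groups overlapped before LPS and did not after it. On TPM the value was -0.25 (adjusted p = 0.0892).

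MAP kinase feedback and immediate-early genes had a median LPS change of 1.08 without and 0.61 with JSH-23, with 11 negative and 2 positive interactions among 23 tested, and 6 and 4 on TPM. Dusp2, a nuclear phosphatase of MAP kinases, rose from 11.7, 12.5 and 11.2 CPM to 81.7, 82.2 and 74.2 without JSH-23 and from 8.05, 8.43 and 8.88 to 28.0, 32.4 and 30.0 with it. Both levels were lower with JSH-23 and the interaction was -0.92 ± 0.10 (adjusted p = 2.33e-06). Dusp1 and Dusp4, phosphatases of the same family, had higher levels in both states, with baseline shifts of 0.78 and 1.25 and interactions of -0.45 and -0.65. Egr2, a zinc finger transcription factor, was one of the genes that reversed: LPS lowered it from 35.0, 37.1 and 37.0 to 20.9, 20.7 and 23.8 CPM without JSH-23 and raised it from 32.0, 29.0 and 29.1 to 35.7, 37.1 and 36.6 CPM with it. The ranges before and after LPS did not overlap in either arm, and the interaction was 1.02 ± 0.08 (adjusted p = 5.26e-08). Among 24 JAK-STAT, SOCS and IRF genes, 8 were negative and 2 positive, against 5 and 4 with library totals alone and 3 and 5 on TPM. Cish, an inhibitor of cytokine signalling induced by STAT5, had a raised baseline (0.61) and a lower LPS level (-0.42), with an interaction of -1.03 ± 0.11 (adjusted p = 1.08e-06), while Batf and Stat5a had an LPS-level shift only, of -0.83 and -0.25. The interactions of Socs1 and Socs3, feedback inhibitors of cytokine receptors, did not pass the test, with LPS changes of 1.61 and 3.80 without and 1.75 and 3.64 with JSH-23, with baseline and LPS-level shifts between -0.99 and -1.27. Irf1 had a larger LPS ratio with JSH-23, 1.70 against 1.35 (adjusted p of the interaction 7.01e-05), and Batf3, a transcription factor of cross-presenting dendritic cells, had an LPS change of -0.38 without and 0.08 with JSH-23, the latter not passing the test, for an interaction of 0.47.

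Costimulation and maturation genes kept most of their LPS response, with 7 negative and 1 positive interaction among 16 and a median LPS change of 1.51 without and 1.21 with JSH-23. Cd80 and Cd86, ligands of CD28, each had a higher baseline (0.36 and 0.20) and a lower LPS level (-0.28 and -0.19), with interactions of -0.64 and -0.39. Cd70, the ligand of CD27, had the same form at low level, with means of 1.14 CPM in WT, 26.0 in WTL, 2.18 in WT + JSH23 and 20.1 in WTL + JSH23 and an interaction of -1.31 ± 0.22 (adjusted p = 0.000189). Pdcd1lg2, which encodes PD-L2, was the positive member, with LPS changes of -0.78 without and -0.48 with JSH-23 and a baseline shift of -0.30. Cd40 was lower at both levels, and for Cd274 (PD-L1), Ccr7 and Icam1 the interaction lay between -0.01 and 0.02 and did not pass the test. Inflammatory enzymes and effectors had 8 negative and no positive interaction among 14, with a median of -0.53, and 5 negative on TPM. Nos2 (inducible nitric oxide synthase) combined a higher baseline (0.37) with a lower LPS level (-0.39), Ptgs2 (cyclooxygenase 2) had an LPS-level shift only (-0.69), and Ch25h (cholesterol 25-hydroxylase) was lower at both levels (-1.06 and -1.84). Serpinb2, an inhibitor of urokinase, rose from 25.2, 26.9 and 22.9 to 295.2, 305.1 and 259.3 CPM without JSH-23 and from 9.28, 7.85 and 8.68 to 39.5, 49.1 and 41.9 CPM with it. It was lower at both levels without overlap, and the interaction was -1.18 ± 0.13 (adjusted p = 1.66e-06).

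Interferon-stimulated genes were lower with JSH-23 almost throughout. All 34 tested had a lower LPS level with JSH-23 and 32 had a lower baseline, beside 24.2% and 22.1% of all genes. The LPS level was lowered more than the baseline in most of them, with 24 negative and no positive interactions: 22 had both levels lower and 2, Oasl1 and Bst2, only the LPS level. LPS raised 25 and lowered 5 of these genes without JSH-23, whereas with it 9 rose and 10 fell. In the absence of JSH-23 the median LPS change was 0.30, in its presence 0.00, the median baseline shift -0.56, the median LPS-level shift -0.72 and the median interaction -0.23, and the median was negative under every scaling. The number of negative interactions was 26 by DESeq2, 16 with library totals alone, 13 on TPM and 23 without WTL + JSH23 replicate 3.

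Usp18, a protease that removes ISG15 and dampens interferon receptor signalling, stood at 263.1, 270.2 and 256.9 CPM in WT and rose to 432.1, 439.8 and 397.5 in WTL. With JSH-23 it stood at 165.7, 160.8 and 171.3 CPM before LPS and 167.8, 174.3 and 180.2 after it. The ranges of the JSH-23 groups overlapped each other and lay below those of WT and WTL, and the interaction was -0.62 ± 0.06 (adjusted p = 6.61e-07). Mx2, an interferon-induced GTPase with antiviral activity, changed from 0.73 without to -0.13 with JSH-23, for an interaction of -0.86 (adjusted p = 8.08e-08). Ifit1, Mx1, Rsad2 and Cmpk2, further interferon-stimulated genes, had interactions between -0.43 and -0.52 and LPS changes with JSH-23 between -0.03 and -0.42.

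Immunity-related GTPases and guanylate-binding proteins, which attack the membranes around intracellular microbes, were lower at both levels in 14 of 14 members but split in their LPS response. Of the 14, 6 had a negative interaction, and all but Gvin1 of these belong to the IRG and Tgtp group: Irgm1, Irgm2, Igtp, Tgtp1 and Tgtp2, at -0.55, -0.59, -0.46, -0.89 and -0.52. The 4 with a positive interaction were the guanylate-binding proteins Gbp5, Gbp7, Gbp8 and Gbp9, at 0.32, 0.18, 0.28 and 0.23. By DESeq2 the counts were 1 positive and 6 negative. The median over the list, -0.07, was 0.02 with library totals alone and 0.07 on TPM. Irgm2 stood at 163.0, 174.1 and 166.5 CPM in WT, 206.5, 206.6 and 189.2 in WTL, 88.1, 91.8 and 84.4 in WT + JSH23 and 70.6, 72.5 and 67.4 in WTL + JSH23. LPS raised it without JSH-23 and lowered it with JSH-23, both without overlap, with an interaction of -0.59 ± 0.06 (adjusted p = 2.89e-06). Gbp5 stood at 636.7, 660.5 and 629.1 CPM in WT, 1678, 1643 and 1590 in WTL, 281.2, 278.8 and 276.7 in WT + JSH23 and 888.6, 940.6 and 841.6 in WTL + JSH23. Its ratio was larger with JSH-23 (adjusted p = 0.000344) while its CPM increment was smaller, 611.3 against 994.9. Tgtp1 and Irgm2 overlap further protein-coding genes, and RSEM gave both fractional counts in 12 libraries, so their reads were divided with similar genes.

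**Figure D4:**
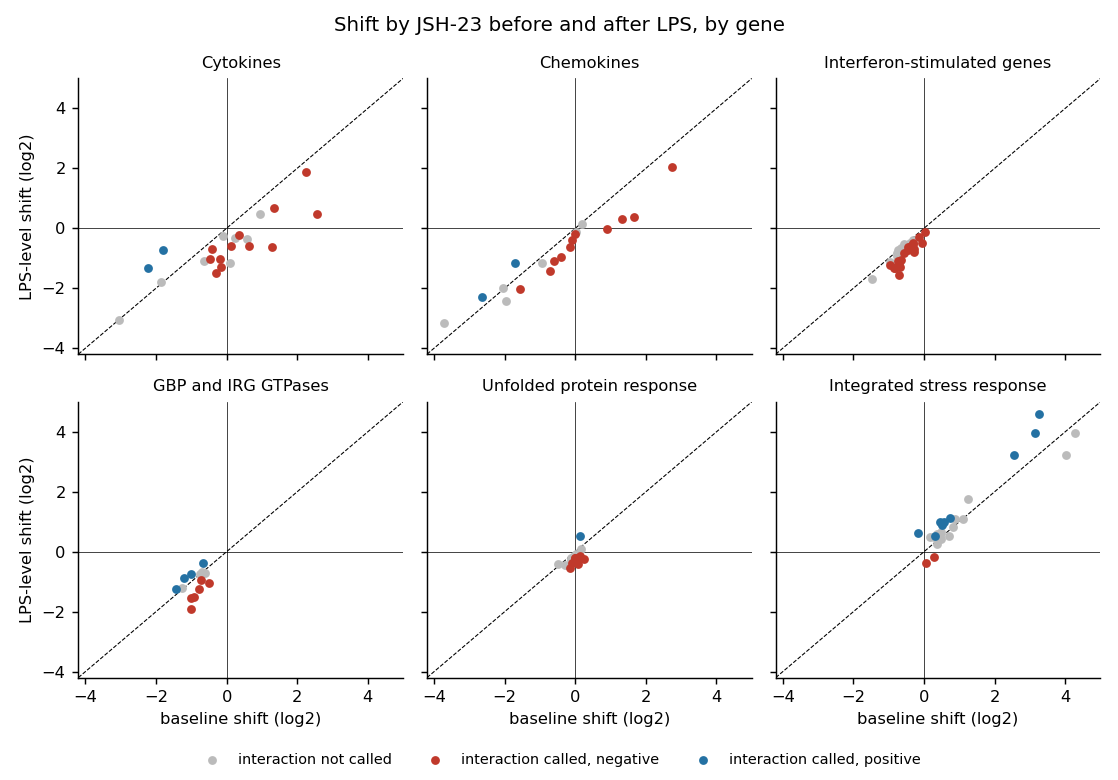
Baseline shift (x axis, log2) against LPS-level shift (y axis, log2) of the tested members of 6 gene lists, with equality as a dashed line, so that the interaction is the vertical distance from it. Interferon-stimulated genes and the GTPases lie in the lower left quadrant, genes of the unfolded protein response lie near a baseline shift of 0 and mostly below the line, and integrated stress response genes with a positive interaction lie to the upper right.

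Antigen presentation genes were mostly lower with JSH-23, and in part already before LPS. The LPS level was lower in 10 of 10 MHC class II genes (median LPS-level shift -0.37), beside 24.2% of all genes. It was also lower in 10 of 14 MHC class I and immunoproteasome genes (median -0.32). The baseline was lower in 6 of the 10 (median baseline shift -0.30) and 9 of the 14 (median -0.13), beside 22.1% of all genes. Of 14 MHC class I and immunoproteasome genes, 7 had a negative and none a positive interaction, between -0.32 and -0.03 over the list, and the count was 12 without WTL + JSH23 replicate 3, 9 by DESeq2, and 1 with library totals alone or on TPM. Tap1, a subunit of the peptide transporter, rose with LPS by 0.31 without JSH-23, and its LPS change with it was -0.02 (interaction adjusted p = 8.17e-05); it overlaps another gene and had fractional counts in 12 libraries. Of 10 MHC class II genes, 1 had a negative and 1 a positive interaction, against 4 and 1 by DESeq2 and 3 and 1 without WTL + JSH23 replicate 3, and the median of -0.11 was 0.03 on TPM. H2-Ab1 had an interaction of -0.17 (adjusted p = 0.0309), which missed the threshold without any single one of 7 libraries, WT replicates 4 and 5, WTL replicate 5, WT + JSH23 replicates 1 and 3 and WTL + JSH23 replicates 1 and 2, with adjusted p up to 0.102. With library totals alone it was -0.08 (adjusted p = 0.265) and on TPM -0.04 (adjusted p = 0.609). Ciita, the transcriptional master regulator of MHC class II, stood at 462.4, 459.7 and 464.8 CPM in WT, 508.4, 514.8 and 522.8 in WTL, 244.2, 272.6 and 249.2 in WT + JSH23 and 382.0, 375.9 and 378.0 in WTL + JSH23. It was lower at both levels without overlap and rose more with LPS in the presence of JSH-23, in ratio and in CPM, with an interaction of 0.41 ± 0.05 (adjusted p = 2.08e-05).

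Stress pathways differed from each other in which level carried the interaction. In the integrated stress response, which adjusts translation and amino acid supply through ATF4, the baseline was higher in 22 of 25 genes and the LPS level in 23, beside 18.8% and 24.5% of all genes. The interaction was positive in 9 and negative in 2, with a median of 0.20, and the counts were 8 and 4 without WTL + JSH23 replicate 3. Asns (asparagine synthetase), Slc6a9 (a glycine transporter) and Sesn2 (sestrin 2) had baseline shifts of 2.56, 3.14 and 0.45 and LPS-level shifts of 3.23, 3.97 and 0.98. The aminoacyl-tRNA synthetase genes Aars, Sars and Gars had interactions of 0.39, 0.37 and 0.20. Trib3, a pseudokinase induced by ATF4, stood at 0.765, 0.654 and 1.10 CPM in WT, 0.659, 0.400 and 0.506 in WTL, 6.88, 8.25 and 8.95 in WT + JSH23 and 9.92, 10.6 and 17.0 in WTL + JSH23. Its levels with JSH-23 were far above those without, and its interaction of 1.31 ± 0.43 (adjusted p = 0.0403) missed the threshold without WT replicate 4 or 6, WTL replicate 4, 5 or 6 or WT + JSH23 replicate 1, at 1.08 to 1.52 with adjusted p up to 0.148. It also missed it by limma voom (1.24, adjusted p = 0.131) and on TPM (0.68, adjusted p = 0.086). Ppp1r15a (GADD34), which ends the response by restoring translation, was the called member with the most negative interaction at -0.46 (adjusted p = 0.00123), which was -0.28 on TPM (adjusted p = 0.148). With library totals alone 14 genes of the list were positive and 1 negative.

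The unfolded protein response raises the folding capacity of the endoplasmic reticulum. Among 18 genes, 10 had a negative and 1 a positive interaction, and for 8 of these 11 the LPS level alone was shifted. The LPS level was lower in 15 of 18 and the baseline in 5, beside 24.2% and 22.1% of all genes. The median LPS change went from 0.26 to -0.00 in the presence of JSH-23. The median interaction was -0.20, negative under every scaling, although on TPM 2 genes were called negative. The chaperones and folding enzymes Hspa5 (BiP), Pdia6 and Manf rose with LPS by 0.83, 0.35 and 0.55 without JSH-23, and their LPS changes with JSH-23 were 0.45, 0.03 and 0.07. Creld2, an endoplasmic reticulum protein induced by ATF6, stood at 20.0, 21.9 and 19.0 CPM in WT, 25.5, 25.9 and 27.1 in WTL, 24.6, 24.0 and 24.6 in WT + JSH23 and 22.6, 21.8 and 21.6 in WTL + JSH23. It rose with LPS without JSH-23 and fell with it, with no overlap, and the interaction was -0.51 ± 0.08 (adjusted p = 0.000144). Ern1, which encodes the stress sensor IRE1α, was the exception, with LPS changes of -0.65 without and -0.26 with JSH-23 and a higher LPS level.

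Nrf2 targets, which protect against oxidants, were mostly shifted in level. The baseline was higher in 20 of 22 and the LPS level in 20, beside 18.8% and 24.5% of all genes. The median shifts were 0.72 and 0.61. The median interaction was -0.03, which was 0.06 with library totals alone and 0.10 on TPM, with 5 negative and 1 positive call, and 2 and 2 with library totals alone. Hmox1 (heme oxygenase 1), Gclc (glutamate-cysteine ligase) and Srxn1 (sulfiredoxin) had baseline shifts of 1.75, 1.77 and 1.65 and interactions of 0.09, 0.19 and -0.03 that did not pass the test. Slc7a11, the cystine transporter, was induced by LPS in both arms with a raised baseline, and its CPM increment was 1305 without and 1302 with JSH-23, beside an interaction of -0.40 ± 0.05 (adjusted p = 2.21e-05). Osgin1, a regulator of growth induced by oxidised lipids, was lowered by LPS without JSH-23 (-0.42) and raised with it (0.21). Heat shock proteins were also higher at both levels, in 12 and 11 of 14, beside 18.8% and 24.5% of all genes. They had 5 negative and 1 positive interaction, and 2 and 1 on TPM. Hspa1b, an inducible HSP70, had a baseline shift of 1.20 and an interaction of -0.70 ± 0.09 (adjusted p = 9.04e-06), with fractional counts in 12 libraries, so that its reads were divided with other genes. Hsph1 was the positive member at 0.25 (adjusted p = 0.0346), which missed the threshold without WT replicate 4 or 6, WTL replicate 4 or 5, WT + JSH23 replicate 2 or WTL + JSH23 replicate 3, with adjusted p up to 0.103.

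**Figure D5:**
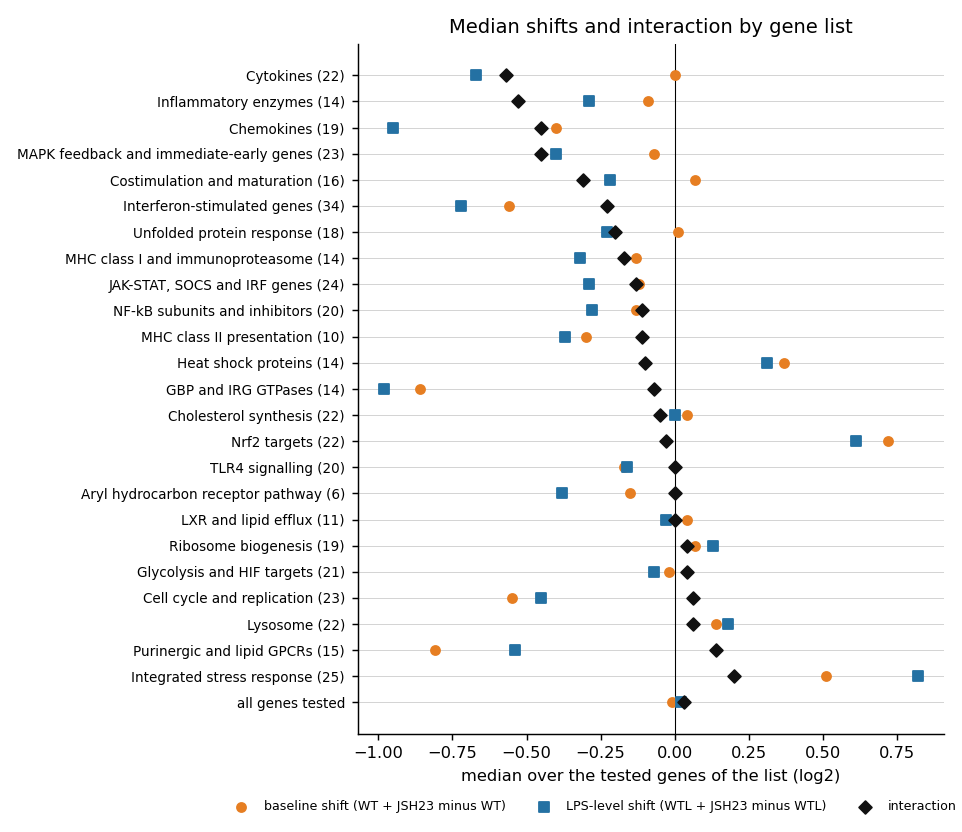
Median baseline shift, LPS-level shift and interaction (x axis, log2) over the tested genes of 24 gene lists (y axis, number tested in parentheses) and over all genes tested. The medians of interferon-stimulated genes and the GTPases lie left of 0 for both shifts, those of Nrf2 targets and integrated stress response genes right of 0, and cytokines, inflammatory enzymes, costimulation and unfolded protein response genes have a baseline shift near 0 with an LPS level below it.

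The aryl hydrocarbon receptor list held the largest positive interaction among the pathway members named here. Of 6 tested, 2 had a positive interaction. Cyp1b1, a cytochrome P450 and target of the receptor, stood at 10.5, 9.33 and 9.14 CPM in WT, 1.38, 0.832 and 1.19 in WT + JSH23, 23.1, 20.2 and 22.7 in WTL and 9.39, 10.7 and 10.4 in WTL + JSH23. It was lower with JSH-23 before and after LPS without overlap, and the LPS level with JSH-23 reached the range of unstimulated WT. The baseline shift was -3.07, the LPS-level shift -1.11 and the interaction 1.96 ± 0.17 (adjusted p = 1.65e-07), which was 0.83 by limma on log2(TPM + 1). Ahrr, a repressor of the same receptor, had LPS changes of -1.64 without and -1.28 with JSH-23, while Ahr itself had a baseline shift of 1.41 and an interaction of -0.14 that did not pass the test. The 250 bases before the start of Cyp1b1, at chr17:79715062-79715311 on the minus strand, are shown because the receptor's core motif occurs in them; the capitals mark GCGTG on the opposite strand, 76 bases before the start.
Cyp1b1: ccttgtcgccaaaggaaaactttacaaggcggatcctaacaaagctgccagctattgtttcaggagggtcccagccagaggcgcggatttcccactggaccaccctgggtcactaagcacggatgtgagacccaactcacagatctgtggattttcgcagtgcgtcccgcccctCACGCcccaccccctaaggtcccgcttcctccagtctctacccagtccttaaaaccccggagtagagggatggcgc
This core was present in 32.5% of the 27025 promoters of the table and in 50.9% of the 10223 tested genes that have one there. Inhba, with a negative interaction, also held it, 169 bases before its start.

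Metabolic and housekeeping programs were mixed, beside 18.0% of all genes with a called interaction. Glycolysis genes had 1 positive and 2 negative calls among 21, 0 and 2 by DESeq2, and 6 and 0 with library totals alone. Cholesterol synthesis genes had 2 and 4 among 22, 2 and 7 by DESeq2 and 4 and 2 with library totals alone, and their median interaction of -0.05 was 0.04 with library totals and 0.07 on TPM. LXR and lipid efflux genes had 1 and 0 among 11, and 3 and 0 with library totals alone. Ribosome biogenesis genes had 1 and 0 among 19, 0 and 1 by DESeq2, and 0 and 2 by edgeR with DESeq2-type size factors. The positive calls of Gpi1 (0.16, adjusted p = 0.0416) and Heatr1 (0.32, adjusted p = 0.0354) and that of Lss (0.25, adjusted p = 0.0157) were close to the threshold: Gpi1 missed it without any single one of 9 libraries, Heatr1 without any single one of 6 and Lss without WTL + JSH23 replicate 1 or on TPM (0.56, adjusted p = 0.186). Gpi1 and Heatr1 also missed it by DESeq2 (adjusted p = 0.0733 and 0.0651) and by edgeR with DESeq2-type size factors (0.0809 and 0.0511). Without a filter on low counts Gpi1 missed it (adjusted p = 0.0678), and on TPM Heatr1 did (adjusted p = 0.131). Slc2a1, the glucose transporter GLUT1, had an interaction of -0.24 (adjusted p = 0.0151) with both levels raised, which was -0.15 with library totals alone (adjusted p = 0.137) and -0.11 on TPM (adjusted p = 0.352). Fdps, an enzyme of isoprenoid synthesis that overlaps another gene and had fractional counts in 12 libraries, had -0.35 (adjusted p = 0.000536), which was -0.23 on TPM (adjusted p = 0.0516). Scd2, a fatty acid desaturase, had LPS changes of -2.47 without and -1.84 with JSH-23, from means of 110.4 to 20.0 CPM and 151.4 to 42.2 CPM (interaction adjusted p = 2.21e-05). Of 23 cell cycle genes, most were lowered by LPS in both arms, 18 without and 19 with JSH-23, beside 34.7% and 27.1% of all genes. A called interaction was found in 3 of the 23. Mki67, which encodes the proliferation antigen Ki-67, was raised by LPS in both arms, by 2.74 without and 2.94 with JSH-23, while Top2a, Ccnb1 and Cdk1 of the same list had LPS changes of -0.55, -1.48 and -0.37 without it. Its interaction of 0.19 (adjusted p = 0.0258) missed the threshold without WT replicate 6, WTL replicate 5, WT + JSH23 replicate 1 or 3 or WTL + JSH23 replicate 1, with adjusted p up to 0.0913, and on TPM (0.24, adjusted p = 0.0999). Pcna, the sliding clamp of DNA replication, had -0.24 (adjusted p = 0.00896), which was -0.15 with library totals alone (adjusted p = 0.0746) and -0.10 on TPM (adjusted p = 0.185).

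Purinergic and lipid receptors had 2 positive and 2 negative interactions among 15, and 5 and 2 with library totals alone or without WTL + JSH23 replicate 3. P2ry2, a receptor for extracellular ATP and UTP, stood at 5.05, 4.30 and 4.31 CPM in WT, 8.91, 9.01 and 9.26 in WT + JSH23, 19.4, 20.3 and 18.8 in WTL and 19.1, 19.1 and 23.6 in WTL + JSH23. The groups overlapped after LPS and did not before it. The interaction of -0.92 ± 0.13 (adjusted p = 3.56e-05) thus went with a baseline shift of 0.99 and an LPS-level shift of 0.07 that did not pass the test. Gpr65, a proton-sensing receptor, had LPS changes of -1.88 without and -1.13 with JSH-23 (adjusted p of the interaction 2.52e-07). P2rx7, the ATP-gated channel upstream of the inflammasome, had LPS changes of -1.62 without and -0.93 with JSH-23.

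Among protein-coding genes with a mean of at least 10 CPM in their highest group and more than 3 counts in every library, those whose repression was weaker were led by Slc43a2, an amino acid transporter, and Amz1, a metalloprotease. Slc43a2 fell from 218.5, 222.7 and 219.0 to 45.2, 45.6 and 53.7 CPM without JSH-23 and from 348.1, 347.9 and 336.0 to 222.2, 197.4 and 228.8 CPM with it. Both levels were higher with JSH-23 without overlap, and the interaction was 1.53 ± 0.08 (adjusted p = 7.16e-11). Amz1 fell from 29.9, 31.7 and 31.6 to 5.89, 6.47 and 7.18 CPM without JSH-23, and stood at 28.1, 29.7 and 31.7 before and 20.6, 18.7 and 32.7 CPM after LPS with it. The groups overlapped before LPS and not after it, and WTL + JSH23 replicate 3 stood above the other replicates of its group, so that the interaction of 1.93 ± 0.20 was 1.66 without it. Both genes had fractional counts in 12 libraries, and Amz1 overlaps another gene. Lysosomal genes had 4 positive and no negative interactions among 22, each a weaker repression. Lipa, the lysosomal acid lipase, fell from 985.4, 1083 and 997.5 to 593.0, 581.6 and 631.3 CPM without JSH-23 and from 1332, 1275 and 1279 to 1073, 1028 and 1058 CPM with it, with an interaction of 0.47 ± 0.06 (adjusted p = 1.11e-05). Npc1, a cholesterol exporter of the lysosome, and Tfeb, a transcription factor of lysosomal genes, had interactions of 0.45 and 0.38. With library totals alone, 11 lysosomal genes were called positive, whereas by DESeq2 3 were positive and 1 negative.

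A stronger repression with JSH-23 was found for 94 genes, of which Ccnj, a cyclin, is described under the same minimum. Ccnj stood at 16.9, 18.3 and 18.4 CPM in WT, 18.3, 17.8 and 15.7 in WTL, 10.1, 11.9 and 11.4 in WT + JSH23 and 6.24, 6.49 and 5.31 in WTL + JSH23. Its LPS change of -0.04 without JSH-23 did not pass the test and that of -0.88 with it did, with an interaction of -0.84 ± 0.12 (adjusted p = 5.43e-05). Among induced genes with a larger response, Mid1, a ubiquitin ligase bound to microtubules, stood at 5.90, 5.95 and 5.93 CPM in WT, 4.80, 4.20 and 5.16 in WTL, 11.8, 11.2 and 14.3 in WT + JSH23 and 22.6, 18.7 and 43.8 in WTL + JSH23. Its interaction of 1.52 ± 0.34 (adjusted p = 0.00367) was 1.07 without WTL + JSH23 replicate 3, and its reads were divided between genes in 12 libraries.

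Reversed responses were mostly small in size, and 10 of the 84 genes exceeded a 2-fold interaction. Of the 26 genes that went up without and down with JSH-23, 21 had both levels lower with JSH-23, and the median LPS change was 0.22 without and -0.19 with it. None exceeded a 2-fold interaction. Members of the pathway lists among them were Ddx58 (the RNA sensor RIG-I), Mx2, Igtp, Irgm1, Irgm2, Creld2 and Dusp5, and 1 gene outside the lists, Apol9a, was named with Irgm2 because the smaller of its opposite LPS changes was among the largest of the class. Apol9a stood at 13.2, 13.9 and 14.3 CPM in WT, 15.1, 16.9 and 19.4 in WTL, 3.69, 4.02 and 4.80 in WT + JSH23 and 3.22, 3.22 and 3.28 in WTL + JSH23, for an interaction of -0.66 ± 0.16 (adjusted p = 0.00583) with fractional counts in 12 libraries. On TPM it was -0.41 (adjusted p = 0.11). Eif2ak2, the double-stranded RNA-activated kinase PKR, was another member, chosen after its values were seen, with LPS changes of 0.16 without and -0.16 with JSH-23. RefSeq promoters were matched for 24 of the 26 genes, and 9 of these (37.5%) held the IRF-like motif. It was present in 8.57% of all 27025 promoters in the table and in 7.46% of the 10223 tested genes that have one there. For the other classes under 80% of genes had a promoter in the table, so the comparison of their shares is void. Their shares reached 19.4%, in the repressed genes with a larger response, so the motif is not shown to be particular to the 26 genes.

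Of the 58 genes that went down without and up with JSH-23, 21 had both levels higher and 13 only the LPS level, and the median LPS change was -0.24 without and 0.20 with it. Plau, the urokinase-type plasminogen activator, stood at 19.0, 22.9 and 21.2 CPM in WT, 16.0, 17.2 and 16.9 in WTL, 24.8, 21.7 and 26.4 in WT + JSH23 and 43.2, 40.7 and 56.8 in WTL + JSH23. The baselines overlapped and the LPS levels did not, with an interaction of 1.27 ± 0.15 (adjusted p = 3.93e-06), 1.11 without WTL + JSH23 replicate 3. Nfatc2, a transcription factor activated by calcineurin, was lowered by LPS from 10.8, 10.5 and 10.3 to 6.86, 6.70 and 7.87 CPM without JSH-23 and raised from 3.63, 4.02 and 3.54 to 5.85, 5.49 and 5.83 CPM with it, and was lower at both levels. Its interaction was 1.19 ± 0.13 (adjusted p = 3.45e-06). The class also held the aminoacyl-tRNA synthetase genes Iars, Mars and Tars, which were chosen after their values were seen and had LPS changes of -0.52, -0.40 and -0.21 without and 0.23, 0.20 and 0.19 with JSH-23. Upper quartile scaling gave 53 genes in the first reversed class and 28 in the second, and without WT + JSH23 replicate 3 the second class held 36.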

How the data were processed

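RNA-seq reads of 12 mouse BMDC libraries had been aligned by the authors to mm10 with STAR 2.6.0c and quantified with RSEM, per the labels. The deposited expected counts per gene, estimated by RSEM and not normalized, were rounded to whole numbers and tested, and the TPM values that the authors deposited beside them served as an alternative, as log2(TPM + 1). The labels and the study's methods differ on how RNA was selected. Genes were filtered by filterByExpr, scaled by TMM and fitted in edgeR 4.0.16 (R 4.3.3) with a mean for each of 4 groups, leaving 8 residual degrees of freedom. P-values came from the quasi-likelihood test with Benjamini-Hochberg adjustment over 14357 genes. DESeq2 1.42.0, limma 3.58.1, other scalings and filters, a replicate block and leaving out each library were alternatives. The fit was tested on simulated data.

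The members and lists were chosen with earlier results of these data known. Genes named with library values were the members of each pathway list with the most negative and the most positive called interaction, the 2 leading genes of each response class, and Il6, Il12a, Il12b and Tnf. Leaders had the largest absolute interaction or, in the reversed classes, the largest smaller of both absolute LPS changes. List and class leaders were protein-coding, with 10 CPM or more on average in their highest group and over 3 counts in each library. Other members of a list were named as examples. A gene that this rule also names is not reported here. Gene positions came from GENCODE M21, matched without version for 55154 of 55335 identifiers, and promoters from RefSeq. Fractional expected counts mark genes whose reads RSEM divided with others.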

Additional observations from a re-analysis of the deposited data

Results flagged for a closer look

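The 2 arms, with JSH-23 or lacking it, differed in their LPS change, by edgeR's test of the interaction itself, in the positive direction for 1370 genes and in the negative direction for 1212. Among the genes named in the report, the interaction in log2 was negative for Cd14 (-0.78), Zc3h12a (-0.39), Dusp2 (-0.92), Cish (-1.03), Inhba (-2.07), Cxcl3 (-1.29), Cd70 (-1.31), Usp18 (-0.62), Tgtp1 (-0.89), H2-Ab1 (-0.17), Tap1 (-0.32), Serpinb2 (-1.18), Slc2a1 (-0.24), Slc7a11 (-0.40), Ppp1r15a (-0.46), Creld2 (-0.51), Hspa1b (-0.70), Fdps (-0.35), P2ry2 (-0.92), Pcna (-0.24), Il12b (-1.92), Ccnj (-0.84), Apol9a (-0.66), Irgm2 (-0.59) and Il6 (-1.21).

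It was positive for Tlr4 (0.99), Egr2 (1.02), Batf3 (0.47), Tnf (1.08), Ccl2 (0.53), Pdcd1lg2 (0.30), Gbp5 (0.32), Ciita (0.41), Gpi1 (0.16), Osgin1 (0.63), Trib3 (1.31), Ern1 (0.39), Hsph1 (0.25), Cyp1b1 (1.96), Lss (0.25), Scd2 (0.62), Gpr65 (0.76), Lipa (0.47), Mki67 (0.19), Heatr1 (0.32), Mid1 (1.52), Amz1 (1.93), Slc43a2 (1.53), Nfatc2 (1.19), Plau (1.27) and Il12a (0.90). What lies behind these differences was not tested.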

How the results depend on the processing

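No named gene's interaction reversed under an alternative: 1028 values for named genes kept their direction and side of the threshold and 64 kept the direction but missed the threshold. With an interaction of over 2-fold required, 192 genes were called, 134 positive and 58 negative, and the response classes held 49 induced and 101 repressed genes with a smaller response, 23 induced and 9 repressed genes with a larger one, and 0 and 10 that reversed from up to down and from down to up. With library totals alone, 2499 were positive and 651 negative, with 491 induced and 2281 repressed genes of smaller response. By limma on log2(TPM + 1), 362 were negative, 291 were induced with a smaller and 60 repressed with a larger response, 11 and 31 reversed, 114 had shifts in opposite directions, 480 in the same direction and 26 neither. Upper quartile scaling gave 53 and 28 reversed genes. Requiring shifts of over 1.5-fold left 191 baseline only, 504 LPS level only, 11 opposite, 261 same direction and 1615 neither, and without a filter on low counts 63 had neither. The cause of these moves was not tested, except that a stricter fold passes fewer genes by construction.

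Leaving out each library in turn gave 1880 (without WTL replicate 5) to 2838 (without WTL + JSH23 replicate 3) called genes, 118 to 195 induced genes with a larger response (without the same libraries), 36 (without WT + JSH23 replicate 3) to 56 reversed from down to up, and 15 (without WTL replicate 4) to 51 with neither shift. Whether replicate numbers pair the libraries was not settled, and the main fit treated them as unpaired. Correlations of same-numbered libraries were all positive but small, 0.0142 to 0.0614. Those of differently numbered libraries were mostly negative, from -0.0564 to 0.0355. Levels were centred on each group mean, so a positive same-number value by itself pulls the others negative and their sign is no separate result. WT + JSH23 replicate 1 correlated best with another number. A replicate block gave 2968 calls, 2535 of them shared with the fit without it in the same direction. Without WTL + JSH23 replicate 3, an alternative chosen after seeing the data, list counts that moved by over 1.5 times were NF-κB positive 0 to 1, costimulation positive 1 to 2, MHC class II negative 1 to 3, MHC class I negative 7 to 12, integrated stress response negative 2 to 4, heat shock positive 1 to 0, aryl hydrocarbon receptor negative 0 to 1, LXR negative 0 to 2, purinergic positive 2 to 5 and ribosome biogenesis negative 0 to 1. With 3 libraries a group, small interactions near the threshold were not resolved.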
